A study of Mus musculus with 3 samples.

Results

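Border associated macrophages were the 845 cells, of 12668 immune cells in all, that carry this name in the cell type column of the authors' annotation. They came from 3 mouse libraries, with 231 of 3544 cells in NT, 458 of 5024 cells in LGG and 156 of 4100 cells in HGG. These macrophages live at the borders of the brain, in the meninges, around blood vessels and in the choroid plexus. They sample fluid, take up debris and can present antigen, whereas microglia are the macrophages of the brain tissue itself. Both carry the surface protein CD45, so a selection on CD45 takes both. Mrc1 (a mannose receptor), Cd163 (a scavenger receptor for haemoglobin bound to haptoglobin), Lyve1 (a receptor for hyaluronan) and Pf4 (a chemokine) are genes commonly used to tell border associated macrophages from microglia. Expression of single genes was not analysed here, so the class could not be checked against these markers, and its name is the authors'.

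The study compared immune cells of the right brain hemisphere in mice without tumor (NT), with low grade glioma (LGG) and with HGG, by droplet single-cell RNA sequencing after positive selection for CD45. The labels speak of injected cells and of excised tumor or normal tissue of like size, and give no strain, no sex and no number of animals. By label, NT mice were 0 to 2, LGG mice 3 to 4 and HGG mice 6 to 8 weeks old, without saying from which event the weeks run. One label goes against another for HGG, as the name and the description of that library say HGG but its title reads no tumor. It is called the library labelled HGG, or HGG for short, and each direction drawn from it rests on that label. Each group was 1 library, so that group, library and labelled age cannot be told apart, and no test across groups exists. The median cell of a library carried 8826.5 UMIs (counted RNA molecules) in NT, 9863.5 UMIs in LGG and 12907.5 UMIs in HGG. Of all cell barcodes, 15 occurred in more than 1 library, and 2 of the 845 border associated macrophages carried such a barcode. No barcode was shared by border associated macrophages of different libraries.

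Shares are given with exact Clopper-Pearson intervals and their ratios with Katz log intervals, all at 95% and for counting error alone. A call of higher or lower needed a 1.5-fold difference in either direction and exact intervals that did not touch. A share cannot tell fewer border associated macrophages from more cells of other kinds.

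The first question was how common the class was in each library. Border associated macrophages made up 6.52% of the NT cells (5.73 to 7.38%), 9.12% of the LGG cells (8.33 to 9.95%) and 3.80% of the HGG cells (3.24 to 4.44%). Against this, 10 of 14 named classes (71.4%) were called in LGG over NT, where border associated macrophages, at a ratio of 1.399 (1.201 to 1.63), were not. In HGG over LGG, 7 of 14 classes (50%) were called, 6 of them lower, and border associated macrophages were among the lower ones with a ratio of 0.417 (0.350 to 0.498). In HGG over NT, 10 of 14 classes (71.4%) were called, 4 of them lower, and border associated macrophages were again among the lower ones with a ratio of 0.584 (0.479 to 0.712). A call was thus common among the classes. In the range of 2985.2 to 14346 UMIs common to the libraries, HGG over LGG lost its call (0.890) and HGG over NT turned without a call (1.39), and with at most 5% mitochondrial UMIs the call of HGG over NT ended (0.849). Of the UMIs of each library, border associated macrophages held 4.73% in NT, 7.65% in LGG and 1.99% in HGG.

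The order of the libraries depended on the cells in the denominator. Among macrophages and monocytes, the class made up 42.9% of 538 cells in NT (38.7 to 47.2%), 26.7% of 1713 cells in LGG (24.7 to 28.9%) and 9.76% of 1599 cells in HGG (8.35 to 11.3%). On this denominator the share was called lower in LGG than in NT, at a ratio of 0.623 (0.5495 to 0.706). That turns the direction seen over all cells. The denominator took the authors' classes glioma associated macrophages, Int Mo/Mac, border associated macrophages, Macrophages and Monocyte. Of these, the class named Macrophages held 46 cells in NT, 529 in LGG and 226 in HGG, and the ratio without it was not computed. Among cells other than microglia, the class held 34.6% in NT, 18.3% in LGG and 8.80% in HGG, and the LGG share was again called lower than that of NT (ratio 0.527, 0.461 to 0.602). HGG had the lowest share of the 3 libraries on each of the 4 denominators tried, including myeloid cells, where it was 3.97% against 10.8% in LGG and 6.75% in NT.

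**Figure D1:**
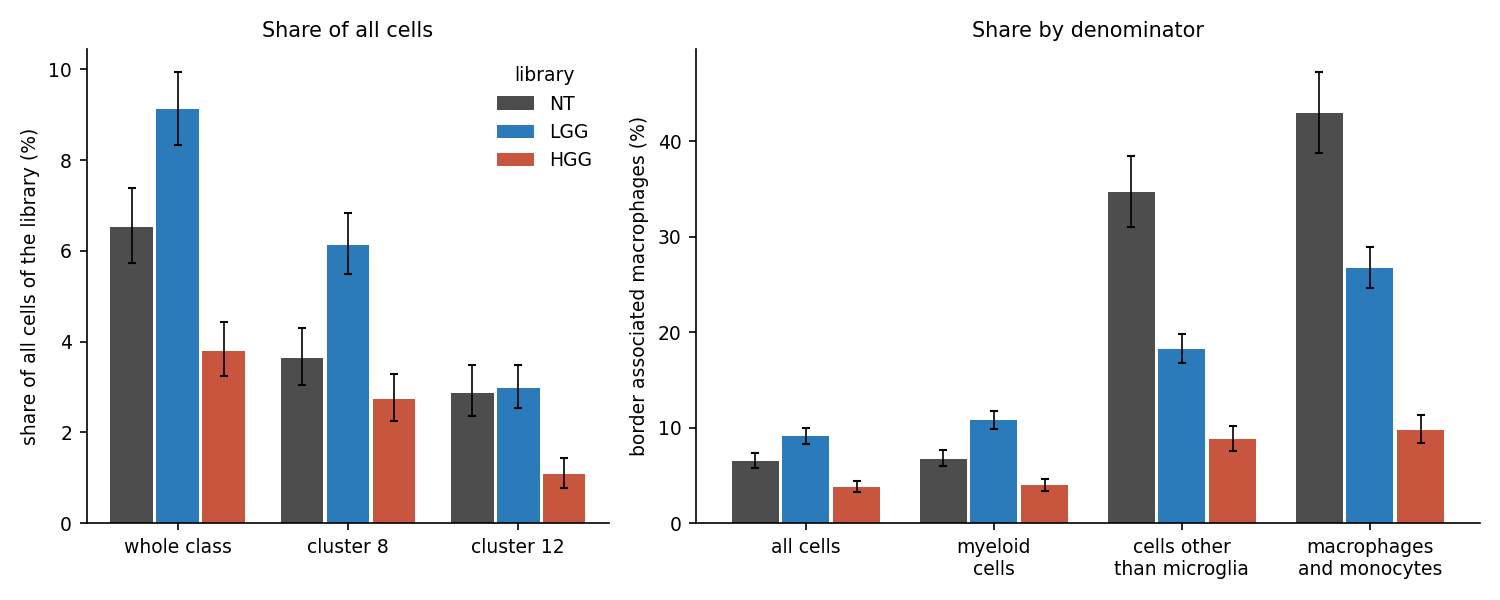
Share of border associated macrophages in the NT, LGG and HGG libraries in percent, with exact 95% intervals (counting error only), over all cells for the class and its clusters 8 and 12 (left) and for the whole class over 4 denominators (right). LGG is highest over all cells at 9.12%, and NT is highest among macrophages and monocytes at 42.9%.

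The class was the sum of 2 deposited clusters that differed in depth. The authors clustered all cells at 22 resolutions, a higher resolution giving more clusters. At resolution 1.5, cluster 8 held 549 cells, all of them border associated macrophages, and cluster 12 held 298 cells, of which 296 were border associated macrophages and 2 were activated microglia. The median border associated macrophage of cluster 8 carried 8560 UMIs in NT, 12354.5 UMIs in LGG and 7946.5 UMIs in HGG. The median cell of cluster 12 carried 1913 UMIs in NT, 1907.5 UMIs in LGG and 2199.5 UMIs in HGG. Cluster 12 was thus shallow to a like degree in each library, at 0.217, 0.193 and 0.170 times the median of all cells in NT, LGG and HGG. Its cells are named here only by the cluster's number and by the authors' class.

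The middle ranges of the clusters did not overlap. In cluster 12 the quartiles of UMIs were 1286 and 3004 in NT, 1050 and 3113 in LGG and 1621 and 3903 in HGG. In cluster 8 they were 6064 and 12520 in NT, 8594 and 17176 in LGG and 6374 and 11588 in HGG. The tails overlapped, since cluster 8 reached down to 983 UMIs and cluster 12 up to 37096 UMIs. Genes detected followed, with medians of 2481, 3090.5 and 2409 genes in cluster 8 of NT, LGG and HGG, and of 759.5, 775 and 885 genes in cluster 12.

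**Figure D2:**
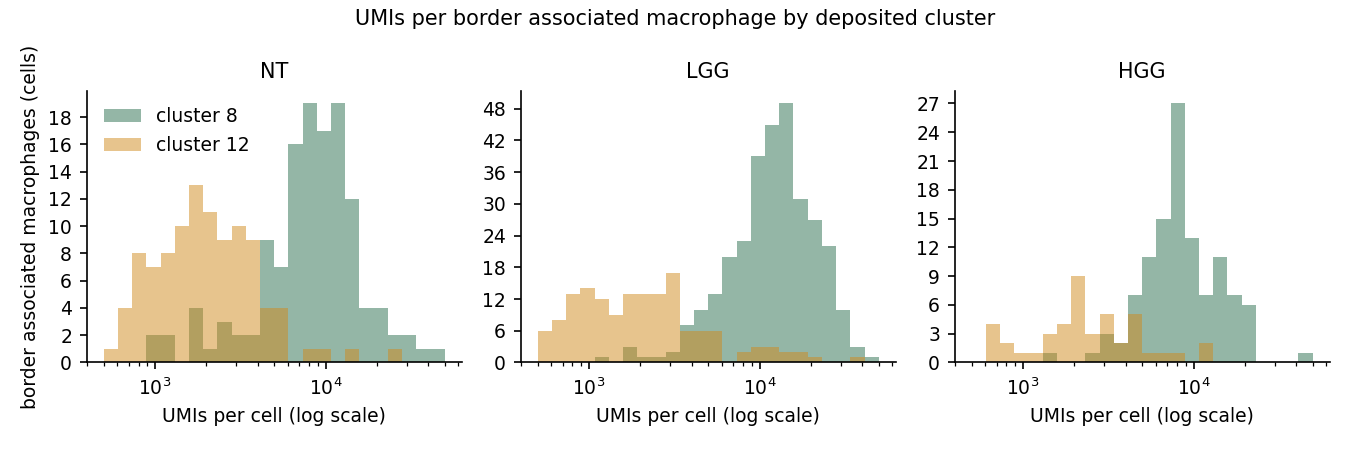
Number of border associated macrophages by UMIs per cell (log axis, equal bins on that scale) in NT, LGG and HGG, split into deposited clusters 8 and 12 at resolution 1.5, with a separate vertical axis for each library. Cluster 12 has its median at 1913 UMIs in NT, 1907.5 UMIs in LGG and 2199.5 UMIs in HGG, below that of cluster 8 in each library.

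The shares of the clusters moved differently. Cluster 8 made up 3.64% of the NT cells (3.05 to 4.31%), 6.13% of the LGG cells (5.48 to 6.83%) and 2.73% of the HGG cells (2.25 to 3.28%). It was called higher in LGG than in NT (ratio 1.68, 1.38 to 2.06) and lower in HGG than in LGG (0.446, 0.360 to 0.551), and it had no call in HGG over NT (0.750, 0.585 to 0.963). Cluster 12 border associated macrophages made up 2.88% of the NT cells (2.35 to 3.48%), 2.99% of the LGG cells (2.53 to 3.49%) and 1.07% of the HGG cells (0.781 to 1.44%). They had no call in LGG over NT (1.04, 0.810 to 1.33) and were called lower in HGG than in LGG (0.359, 0.258 to 0.502) and in HGG than in NT (0.373, 0.263 to 0.529). Within the class, cluster 12 held 44.2% of the cells in NT, 32.8% in LGG and 28.2% in HGG, with a call only for HGG over NT (0.639, 0.478 to 0.853).

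Since the class was the shallower part of its library in NT and HGG, its share was also read within ranges of UMIs. The median border associated macrophage carried 4655 UMIs in NT, 9328 UMIs in LGG and 7163.5 UMIs in HGG, and the median other cell 8955, 9909.5 and 13423.5 UMIs in that order. Below 2001 UMIs the class held 30.3% of the cells in NT, 22.3% in LGG and 4.52% in HGG. From 5001 to 10000 UMIs it held 3.88% in NT, 5.66% in LGG and 7.04% in HGG. In that range HGG was called higher than NT (ratio 1.82, 1.29 to 2.55), the opposite direction to that over all cells, and was not called against LGG (1.24, 0.917 to 1.69). Above 20000 UMIs the class held 10 of 126 cells in NT (7.94%), 56 of 713 cells in LGG (7.85%) and 7 of 1271 cells in HGG (0.551%). HGG was called lower than LGG in the range below 2001 UMIs, from 10001 to 20000 UMIs (2.79% against 8.83%) and above 20000 UMIs.

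Genes per cell and mitochondrial content were set beside those of other cells in the same range. The median border associated macrophage differed from the median other cell by between -314 and 212.5 genes over the 15 combinations of range and library, with no common sign. The mitochondrial percent of UMIs, often read as a sign of stressed or broken cells, had a median of 3.59% in NT, 3.58% in LGG and 3.25% in HGG for the class, and of 2.28%, 3.29% and 4.16% for other cells. In NT and in LGG the class lay above other cells in each of the 5 ranges. From 5001 to 10000 UMIs it had 3.76% against 2.13% in NT and 3.25% against 3.05% in LGG. In LGG, however, Int Mo/Mac cells lay above the class in that range (3.80%) and from 10001 to 20000 UMIs (3.67% against 3.62%). They lay below it in the other LGG ranges and in each range of NT. In HGG the class lay above other cells in the lower 3 ranges and below them in the upper 2, for example at 3.40% against 4.62% from 10001 to 20000 UMIs. The median ribosomal percent lay between 0.368% (HGG) and 0.408% (NT), on a column that never exceeds 1.85% and whose gene pattern is not stated.

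At the finest deposited clustering, resolution 5, the class fell into 5 clusters. Clusters 18, 29 and 42 lay within cluster 8, cluster 23 within cluster 12, and cluster 45 mostly within cluster 12 (57 of its 64 border associated macrophages). Cluster 18, the most frequent of the 5 in LGG and HGG, held 25.1% of the class in NT (19.7 to 31.2%), 35.4% in LGG (31.0 to 39.9%) and 38.5% in HGG (30.8 to 46.6%), without a call. Cluster 23 held 32.9% in NT, 27.5% in LGG and 23.7% in HGG, also without a call, and cluster 45 held 12.1%, 6.11% and 5.13% in that order.

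Of the 5 fine clusters, 29 and 42 met a call. Cluster 29 held 29.9% of the class in NT (24.0 to 36.2%), 16.4% in LGG (13.1 to 20.1%) and 27.6% in HGG (20.7 to 35.3%). It was called lower in LGG than in NT (ratio 0.548, 0.412 to 0.730) and higher in HGG than in LGG (1.68, 1.21 to 2.34). Cluster 42 held 0 of 231 border associated macrophages in NT, which allows a share of up to 1.299%, 67 of 458 in LGG (14.6%, 11.5 to 18.2%) and 8 of 156 in HGG (5.13%, 2.24 to 9.85%). The measured share was 11.3 times that limit in LGG and 3.95 times that limit in HGG. These folds leave out the counting error of the LGG and HGG shares, and the exact interval for NT reaches 1.58%. The share was called lower in HGG than in LGG (0.351, 0.172 to 0.713). Of its 75 border associated macrophages, 67 came from the LGG library, so that the cluster may stand for that library and not for a kind of cell.

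Cluster 42 was also the deepest of the 5. Its median cell carried 19000 UMIs in LGG and 15959 UMIs in HGG, against 11912.5 UMIs for cluster 18 in LGG and 7984.5 UMIs in HGG. Its place among the others was not fixed. At resolution 4.5, 74 of its 75 cells shared a cluster with most of cluster 18, whereas at resolution 3.5, 67 of the 75 shared one with most of cluster 29.

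**Figure D3:**
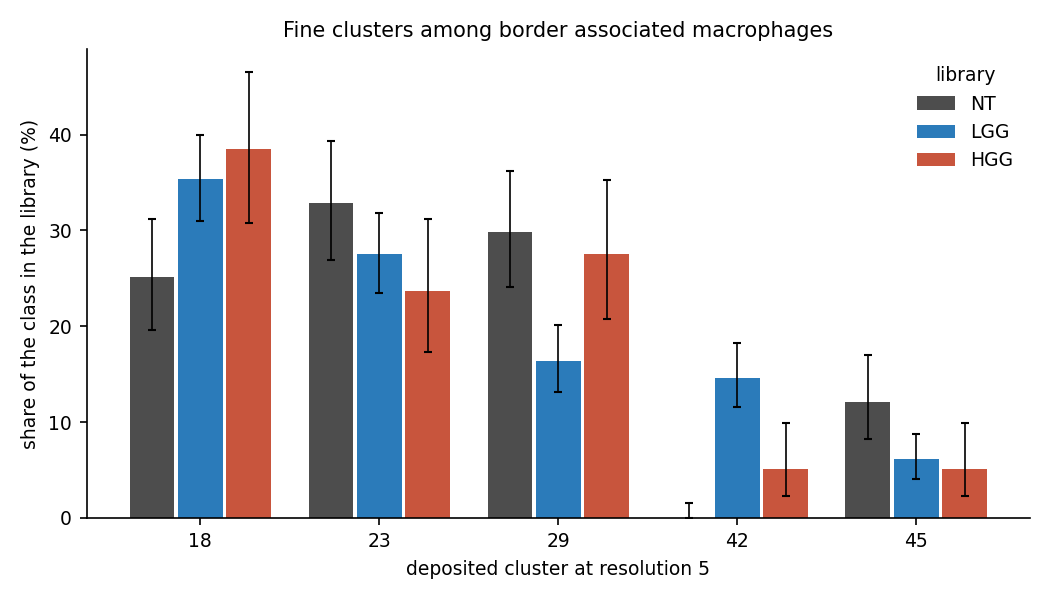
Share of the class held by each deposited cluster at resolution 5, in percent, in NT, LGG and HGG, with exact 95% intervals (counting error only). Cluster 42 has no cell in NT (the bar from 0 to 1.58% is the exact interval) and 14.6% of the class in LGG, and cluster 29 is lowest in LGG at 16.4%.

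At coarse resolutions the class was not separated from part of its nearest neighbour, the class Int Mo/Mac, as the authors call it. From resolution 0.1 to 0.7, from 832 to 834 of the 845 border associated macrophages lay in 1 cluster. Of the 959 Int Mo/Mac cells, that cluster held 485 at resolution 0.1 and 254 from resolution 0.2 to 0.7. The remaining Int Mo/Mac cells lay in other clusters. At resolution 0.4 that cluster held 1097 cells, of which 833 (75.9%) were border associated macrophages and 254 were Int Mo/Mac. At resolutions 0.8 and 0.9 the class lay in 2 clusters that still held 267 and 270 Int Mo/Mac cells. At resolution 1 the clusters of the class held 862 cells, with 14 Int Mo/Mac cells among them. From there up to resolution 5, border associated macrophages made up between 97.7% and 99.8% of the clusters that held at least 20 of them. The class is nearly the sum of deposited clusters at resolution 1.5, so a high share there may follow from how the class was drawn. These shares are not taken as an independent check of the class.

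The deposited phase scores put few border associated macrophages at high values. An S score and a G2M score are meant to follow genes of DNA replication and of mitosis, and the gene lists behind these columns are not stated. Phase S or G2M was called for 41.6% of the class in NT (35.1 to 48.2%), 40.0% in LGG (35.4 to 44.6%) and 46.8% in HGG (38.8 to 54.9%), with no call between libraries. In other cells the figures were 31.0% in NT, 44.6% in LGG and 37.1% in HGG. G2M alone was called for 14.3% of border associated macrophages against 6.34% of other cells in NT, for 17.9% against 14.6% in LGG and for 22.4% against 10.2% in HGG. A G2M score above 0.2 was nonetheless rare in the class, with 1 cell in NT (0.433%), 2 cells in LGG (0.437%) and 0 of 156 cells in HGG, which allows up to 1.92%. In other cells such scores made up 1.15% in NT, 2.93% in LGG and 2.74% in HGG. These other cells include Int Mo/Mac, whose upper quartile of the G2M score lay above 0.2 in NT and HGG and below 0.2 in LGG. High scores were not counted in other cells without Int Mo/Mac. The figures thus do not show that the class had fewer high scores than other cells in general. The counts of border associated macrophages with an S score above 0.2 were the same, 1, 2 and 0.

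Most calls other than G1 thus rest on scores of at most 0.2, and in LGG they were more frequent in the shallow cluster. The median G2M score of the class was -0.0312 in NT, -0.0275 in LGG and -0.0216 in HGG. In LGG, S or G2M was called for 54.0% of cluster 12 cells (45.7 to 62.2%) and for 33.1% of cluster 8 cells (27.9 to 38.7%). In NT the shares were 45.1% and 38.8%, and in HGG 54.5% and 43.8%, with overlapping intervals in both. No cycling is read from these calls. Thinning cells to equal depth was not possible from totals per cell.

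The parallel name columns of the table give the class under other annotations. SingleR, which compares each cell with reference profiles, called 75.3% of border associated macrophages macrophages in NT, 92.4% in LGG and 83.3% in HGG in its first main column, and called all the others microglia (57, 35 and 26 cells). In that column the microglia name was called lower in LGG than in NT (7.64% against 24.7%, ratio 0.310, 0.210 to 0.457) and higher in HGG than in LGG (16.7% against 7.64%, ratio 2.18, 1.36 to 3.503). In the second SingleR main column the microglia name was given to 14.7% of the class in NT, 3.49% in LGG and 4.49% in HGG. In the column label.fine the macrophage name was instead lowest in LGG, at 89.6% in NT, 77.1% in LGG and 89.7% in HGG. Its name unknown went to 18 cells in NT, 46 in LGG and 6 in HGG, all in cluster 12. Neither had a call between libraries. The finer first SingleR column placed 766 of the 845 cells under the single name Macrophages (MF.11C-11B+), and 80.9% of all cells with that name were border associated macrophages. The column final_celltype gave 833 of the 845 the name Macrophage Cluster 1, a name it gave to 1520 cells in all. By library these were 230 cells in NT, 450 in LGG and 153 in HGG. The class has the same counts in its largest cluster at resolution 0.4. The name may thus follow the deposited clustering and is not taken as independent support.

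In the first SingleR main column, the microglia name fell more often on the shallow cluster in each library. It covered 34.3% of cluster 12 (25.2 to 44.4%) and 17.1% of cluster 8 (11.0 to 24.7%) in NT. In LGG it covered 15.3% of cluster 12 (9.98 to 22.1%) and 3.90% of cluster 8 (2.03 to 6.71%), and in HGG 36.4% (22.4 to 52.2%) and 8.93% (4.36 to 15.8%). Fine cluster 23 carried the name at 42.1% in NT, 17.5% in LGG and 43.2% in HGG. Fine cluster 45, mostly within cluster 12, carried it at 17.9% in NT, 10.7% in LGG and in 0 of 8 cells in HGG. In the column VHove2019_v2 the microglia name was not more frequent in the shallow cluster in NT, with 6 of 102 cells of cluster 12 (5.88%) and 11 of 129 cells of cluster 8 (8.53%). Of those 11 cells, 10 lay in fine cluster 29. In LGG that name went to 3 of 150 cells of cluster 12 and 0 of 308 of cluster 8. In HGG it went to 1 of 44 and 1 of 112. The part of depth in these names was not tested. These 4 names were then set side by side, namely macrophages in both SingleR main columns, BAM in the column VHove2019_v2 and TAM 1 in the column scANVI_celltype. All 4 were given to 71.9% of the class in NT (65.6 to 77.6%), 86.2% in LGG (82.7 to 89.3%) and 78.8% in HGG (71.6 to 85.0%). None of the 4 was given to 17 cells in NT, 3 cells in LGG and 2 cells in HGG.

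A second annotation holds a border associated macrophage name of its own and draws it more widely. The column VHove2019_v2 called 209 of 231 cells of the class BAM in NT (90.5%), 434 of 458 in LGG (94.8%) and 153 of 156 in HGG (98.1%). The cells it named otherwise were mostly microglia in NT (17 cells) and cDC, as the column calls them, in LGG (20 cells, 19 of them in cluster 12). It gave the BAM name to 1942 cells in all, of which 1146 lay outside the class. These included 375 Int Mo/Mac cells (39.1% of that class), 221 glioma associated macrophages (18.3%) and 190 microglia (2.75%). The name also fell on 24.7% of immature erythrocytes, 19.5% of T cells and 10.1% of B cells, so it was not confined to macrophages. The class held 76.3% of the cells named BAM in NT, 43.3% in LGG and 23.0% in HGG. With this wider name, the share of all cells was called higher in LGG than in NT (ratio 2.58, 2.27 to 2.93) and higher in HGG than in NT (2.10, 1.84 to 2.40). The second of these is the opposite of the direction for the class itself.

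The column VHove2019_label divided the class unevenly between libraries. It named 22 of 231 border associated macrophages TAM 1 in NT (9.52%, 6.07 to 14.1%), 260 of 458 in LGG (56.8%, 52.1 to 61.4%) and 65 of 156 in HGG (41.7%, 33.8 to 49.8%). The share was called higher in LGG than in NT (ratio 5.96, 3.97 to 8.94) and higher in HGG than in NT (4.38, 2.82 to 6.78), and had no call in HGG over LGG (0.734, 0.5996 to 0.898). The remaining cells were mostly named TAM 2, at 58.0% in NT, 33.0% in LGG and 45.5% in HGG, or unknown, at 29.4%, 7.21% and 12.8%. The table does not define TAM 1 or TAM 2. A further column, PAntunes2021, gave the same name as VHove2019_label to 838 of the 845 cells and is not independent of it.

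The TAM 1 share was lowest in NT in each of the 5 ranges of UMIs and in each of clusters 8 and 12. By range it lay between 0 and 14.3% in NT, between 41.9% and 62.2% in LGG and between 30.0% and 47.0% in HGG. The NT value of 0 is 0 of 10 cells above 20000 UMIs, which allows up to 30.0%. In cluster 8 it was 6.98% in NT, 53.6% in LGG and 45.5% in HGG, and in cluster 12 it was 12.7%, 63.3% and 31.8%. In fine cluster 42 the name was given to 48 of 67 cells in LGG (71.6%) and to 6 of 8 cells in HGG (75%). In the neighbouring Int Mo/Mac class the same name covered 16.0% of the cells in NT, 23.8% in LGG and 24.4% in HGG, with no call in LGG over NT (ratio 1.49, 0.967 to 2.30). Over all cells other than border associated macrophages it covered 0.604% in NT, 3.18% in LGG and 2.46% in HGG. That was called higher in LGG than in NT (5.26, 3.30 to 8.38) and in HGG than in NT (4.07, 2.52 to 6.58). These ratios also follow the mix of classes. Of such cells, Int Mo/Mac held 20 of 20 in NT, 113 of 145 in LGG and 88 of 97 in HGG. Int Mo/Mac made up 3.53% of all cells in NT, 9.43% in LGG and 8.78% in HGG. Outside both classes the name covered 0 of 3188 cells in NT, 0.782% in LGG and 0.251% in HGG. There it was called higher in LGG than in NT, without a call in HGG over NT. The direction over NT was thus not particular to the class. Whether the change between libraries differs between the classes was not tested, as each group is 1 library. The 3 libraries' cells named TAM 1 numbered 42, 405 and 162 in NT, LGG and HGG, and border associated macrophages were 52.4%, 64.2% and 40.1% of them.

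Another annotation gave the name TAM 1 to most of the class in each library. The column scANVI_celltype, named after a method that transfers names from a reference, called 85.3% of the class TAM 1 in NT, 95.4% in LGG and 91.7% in HGG. With 85.3% in NT, no 1.5-fold rise could be reached, so the missing call for TAM 1 says nothing about a difference. Its TAM 2 name covered 14.7% in NT, 3.71% in LGG and 7.05% in HGG and was called lower in LGG than in NT (ratio 0.252, 0.144 to 0.442). Above 20000 UMIs, scANVI_celltype named 51 of 56 cells TAM 1 in LGG and 2 of 10 in NT, called higher in LGG (4.55, 1.31 to 15.8). The columns share the name, and 345 of the 347 border associated macrophages named TAM 1 by VHove2019_label were also TAM 1 under scANVI_celltype. Of the 356 cells named TAM 2 by VHove2019_label, 295 were TAM 1 under scANVI_celltype and 58 were TAM 2.

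**Figure D4:**
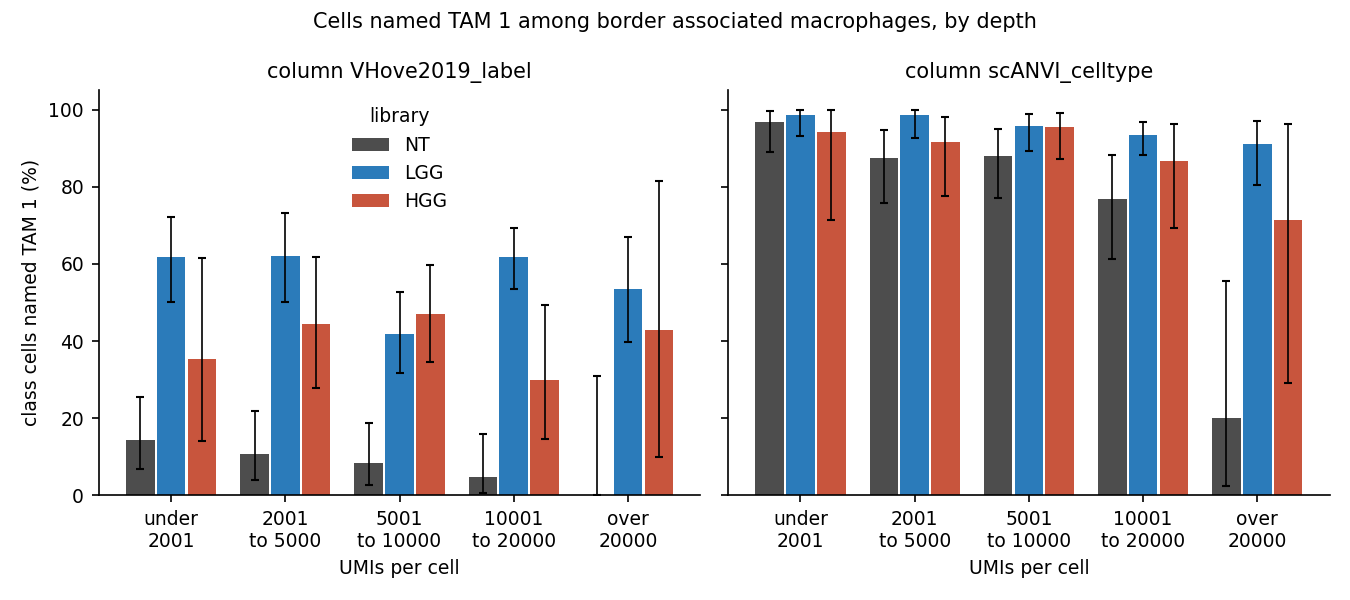
Share of border associated macrophages named TAM 1, in percent with exact 95% intervals (counting error only), by range of UMIs per cell and library, in the column VHove2019_label (left) and the column scANVI_celltype (right). On the left NT stays at or below 14.3% in each range and LGG at or above 41.9%, and on the right NT lies at 87.5% or more up to 10000 UMIs, at 76.7% from 10001 to 20000 UMIs and at 20.0% above, where LGG lies at 91.1%.

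A monocyte name covered few cells of the class. The column label.fine called 3 border associated macrophages monocytes in NT (1.299%), 40 in LGG (8.73%) and 8 in HGG (5.13%), with a call in LGG over NT (ratio 6.72, 2.10 to 21.5). Of the 40 in LGG, 37 lay in cluster 8, the deeper cluster. The column cell.label gave the same counts, but other columns did not show this call. In NT, LGG and HGG, a monocyte name went to 0, 3 and 2 cells in scANVI_celltype and to 0, 5 and 0 in the second SingleR main column. In VHove2019_v2 it went to 3, 1 and 0 cells.

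Deposited doublet calls, which mark droplets thought to hold more than 1 cell, were few in the class. They marked 15 of 231 border associated macrophages in NT (6.49%, 3.68 to 10.5%), 12 of 458 in LGG (2.62%, 1.36 to 4.53%) and 6 of 156 in HGG (3.85%, 1.42 to 8.18%). Other cells were marked at 2.60% in NT (2.08 to 3.20%), 4.18% in LGG and 3.27% in HGG. In NT the share lay above that of other cells, with intervals apart. Calls of high confidence alone marked 4.76% of the class in NT (2.40 to 8.36%) against 0.694% of other cells (0.441 to 1.04%). They marked 1.31% against 3.37% in LGG and 2.56% against 2.31% in HGG. Of the border associated macrophages in fine cluster 29, 12 of 69 were marked in NT, 1 of 75 in LGG and 4 of 43 in HGG. The marked cells of the class had median depths of 17355 UMIs in NT, 24605.5 UMIs in LGG and 17880.5 UMIs in HGG. Without the marked cells, the 3 ratios between libraries for the share of the class kept their calls.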

How the data were processed

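Per the labels' protocols, cells ran on a 10x Genomics Chromium controller and Cell Ranger 3.0.2 quantified the reads on mm10. Seurat 4 appears in the submitters' processing notes. The authors deposited 1 table with 64 columns and 12668 cells, and 54 of the columns were read. Per the file headers, the deposited values are the count of UMIs and of genes per cell, the mitochondrial and ribosomal percent of UMIs, an S and a G2M score per cell, and clusters, phases, doublet calls and names. Cells have at least 501 UMIs and 201 genes and at most 9.97% mitochondrial UMIs, and which filters were set is not given in the sources used here.

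Shares, medians and cross-tabulations were computed with Python 3.11.15, pandas 2.3.3 and SciPy 1.17.1, and the call rule was tested on simulated counts. For a share of 0, 3 counts over the denominator set the upper limit. A fold against such a share used that limit and left out the counting error of the other share. No p-value was computed, since cells of a library are not replicates. Every cluster or name with at least 20 cells of the class in 1 or more libraries could be named, and smaller counts were singled out after their values were seen. The summary per gene, markers included, was not run. Doublet calls were kept in, and leaving them out was an alternative. The class, the lists and the comparisons were chosen with earlier results of these data known. The TAM 1 comparison, the split by clusters 8 and 12 and the ranges of UMIs were added after the data were seen.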

Additional observations from a re-analysis of the deposited data

How the results depend on the processing

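The share of the class over all cells was recomputed under 22 alternatives per comparison, and the cause of a change was not tested. For LGG over NT (1.399, no call), 12 stayed without a call, of which those below 2001 UMIs (0.737) and above 20000 UMIs (0.990) lay on the other side of 1. It was called higher with at most 5% mitochondrial UMIs (1.76), in the common range of 2985.2 to 14346 UMIs (1.56), over myeloid cells (1.60), with the VHove2019_v2 name (2.58), with a macrophage name in the first (1.71) or second (1.56) SingleR column too, in cluster 8 (1.68) and from 10001 to 20000 UMIs (2.51). It was called lower among macrophages and monocytes (0.623) and with microglia left out (0.527). For HGG over LGG (0.417, lower), 18 kept the call, which ended in the common range (0.890), with the VHove2019_v2 name (0.814) and from 2001 to 5000 UMIs (0.617), and turned without a call from 5001 to 10000 UMIs (1.24). For HGG over NT (0.584, lower), 15 kept the call. It ended with at most 5% mitochondrial UMIs (0.849), in cluster 8 (0.750), from 2001 to 5000 UMIs (0.681) and from 10001 to 20000 UMIs (0.793), and turned in the common range (1.39), with the VHove2019_v2 name (2.10) and from 5001 to 10000 UMIs (1.82).

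The TAM 1 ratio of LGG over NT kept its call in 12 of 13 alternatives and had none with the scANVI_celltype column (1.12), where the NT share of 85.3% leaves no room for a 1.5-fold rise. HGG over LGG was called lower in cluster 12 (0.502) and from 10001 to 20000 UMIs (0.486). HGG over NT lost its call in cluster 12 (2.497), with scANVI_celltype (1.07, where the same holds) and below 2001 UMIs (2.47). The call was also lost from 10001 to 20000 UMIs (6.45) and above 20000 UMIs (1.43 against the limit for 0 in NT). It turned without a call for HGG over LGG from 5001 to 10000 UMIs (1.12). Ratios of phase calls stayed without a call, with LGG over NT at 1.05 in the common range and 0.961 over all depths. Ratios of median UMIs and genes kept their direction in the 3 alternatives run, with HGG over NT in UMIs between 1.03 and 1.70. Within the clusters they did not all do so. In cluster 8 the medians were lower in HGG than in NT (7946.5 against 8560 UMIs, 2409 against 2481 genes). In cluster 12 the median was 1907.5 UMIs in LGG and 1913 UMIs in NT.

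The common range of UMIs moved cluster shares within the class. Cluster 12 went to 21.0% in NT, 18.5% in LGG and 14.0% in HGG, cluster 18 to 37.9%, 49.1% and 50%, and cluster 23 to 14.5%, 13.0% and 14.0%. Cluster 29 moved to 39.5% in NT and 23.6% in LGG, cluster 42 to 8.80% in LGG and 1% in HGG, and cluster 45 to 8.06% in NT and 1% in HGG. With at least 1000 UMIs, LGG had 27.2% in cluster 12 and 21.7% in cluster 23. At resolution 4.5 the cluster matching 18 held 50.4% in LGG, and that matching 23 held 45.02% in NT and 33.4% in LGG.

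No paired analysis was possible because each group is 1 library. A finer clustering than resolution 5 was not used here. Fine clusters 42 and 45 hold 8 cells each in HGG.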
